A study of Mus musculus with 4 samples.

Results

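The pro-B and large pre-B cells of a neonatal mouse tibia were 515 of 14181 cell barcodes in 1 single-cell RNA-seq library, and 515 of the 9583 barcodes with at least 1000 detected genes and at most 10% of their unique molecular identifiers (UMIs, which count captured RNA molecules) from mitochondrial genes. That is 5.37% of the 9583 (exact binomial 95% interval 4.93 to 5.84%). The cells were chosen by their own counts: at least 5 UMIs of Cd79a, fewer than 5 of Siglech, at least 5 UMIs of Vpreb1 and Igll1 together per 10000 UMIs of the cell, and under 50 per 10000 of Col1a1 and of Col2a1. The values of these genes therefore describe the choice and support nothing.

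The library came from the proximal and distal tibia of 1 male mouse at postnatal day 6, with 2 tibiae pooled and digested with dispase and collagenase. The mouse carried Col10a1Cre, Rosa26-Tdtomato, Irx3 +/Δ and Irx5 +/-, the heterozygous control state of these Iroquois genes. Col10a1Cre is active in hypertrophic chondrocytes, so the reporter and the conditional Irx3 allele are not directed at blood cells, whereas Irx5 +/- was carried by every cell. The 4 entries deposited for the series are 1 library of 1 mouse, and no barcode says which entry it came from, so there was no replicate, no other genotype and no test between conditions. Every interval given here covers counting error only.

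B cells arise in the marrow from lymphoid progenitors. A pro-B cell joins gene segments of the immunoglobulin heavy chain with the recombinase made of Rag1 and Rag2, and terminal transferase (Dntt) adds untemplated nucleotides at the joints. A cell that has made a heavy chain displays it with the surrogate light chain, a stand-in built from Vpreb and Igll1 proteins, and with the signalling partners Cd79a and Cd79b. Signals of this pre-B receptor and of interleukin 7 drive the divisions of large pre-B cells, after which the light chain genes are recombined in small pre-B cells that no longer divide.

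Vpreb1 lies at chr16:16868403-16870843 on the minus strand of GRCm38 (the mm10 build of the files), Igll1 next to it at chr16:16860671-16863985 on the same strand, and Cd79a at chr7:24897381-24902197 on the plus strand. The promoters of the 3 genes that chose the cells are shown because their transcripts define the population. Each runs from 250 bases before to 50 bases after the RefSeq start of the gene (GRCm38.p6), 5′ to 3′ on the gene's strand, at chr16:16869206-16869505 for Vpreb1, chr16:16863936-16864235 for Igll1 and chr7:24897247-24897546 for Cd79a. The gene spans above are from GENCODE M21, and for Vpreb1 and Cd79a they begin upstream of the RefSeq start. The Vpreb1 window therefore lies inside the printed span of the gene, and the Cd79a window lies partly inside it. Ebf1, the factor that specifies the B lineage, and Tcf3, which encodes the E2A proteins, were both abundant in the cells (1566 and 391 CPM, defined below). Capitals mark the letters CCCNNGGG, an EBF core, and CAGNTG or its other strand CANCTG, an E-box of the kind E2A proteins can bind, and the letters overlap where an E-box reads the same on both strands.
Vpreb1: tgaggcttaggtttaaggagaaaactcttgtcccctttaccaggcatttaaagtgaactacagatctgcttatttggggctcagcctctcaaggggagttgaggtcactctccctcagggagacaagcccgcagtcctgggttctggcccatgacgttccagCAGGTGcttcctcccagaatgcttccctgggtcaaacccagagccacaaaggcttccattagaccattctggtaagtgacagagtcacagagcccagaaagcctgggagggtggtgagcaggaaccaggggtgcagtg
Igll1: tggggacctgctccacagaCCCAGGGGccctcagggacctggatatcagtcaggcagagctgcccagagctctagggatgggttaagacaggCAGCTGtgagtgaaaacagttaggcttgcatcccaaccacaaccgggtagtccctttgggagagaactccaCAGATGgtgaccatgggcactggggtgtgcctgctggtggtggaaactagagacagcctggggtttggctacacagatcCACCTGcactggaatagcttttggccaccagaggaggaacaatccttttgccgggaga
Cd79a: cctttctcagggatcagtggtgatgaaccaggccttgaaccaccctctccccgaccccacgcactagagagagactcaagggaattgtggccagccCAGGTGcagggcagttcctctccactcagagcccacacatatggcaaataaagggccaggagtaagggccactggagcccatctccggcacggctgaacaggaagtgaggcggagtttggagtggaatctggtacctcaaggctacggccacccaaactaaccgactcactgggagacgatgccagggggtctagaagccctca
The Igll1 window held the EBF letters at -231 from the start, and E-box letters at -158, -87 and -8. The Vpreb1 window held E-box letters at -88 and the Cd79a window at -154, and the EBF letters were in neither of these windows. Among 32851 RefSeq promoter windows of the same length, 13.7% held the EBF letters and 51.4% the E-box letters. A match describes the letters, not binding. Only these exact letters were searched, so a window without them, such as that of Cd79a, may still hold a site that departs from them.

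Of the 957 filtered barcodes with at least 5 Cd79a UMIs, 955 had fewer than 5 Siglech UMIs, 539 of these reached the surrogate light chain limit, and 515 also stayed under the collagen limits. The lowest Vpreb1 and Igll1 sums inside were 5.02, 5.09 and 5.09 per 10000, and the highest just outside were 4.97, 4.92 and 4.82. Between 5 and 6 per 10000 lay 18 of the cells. At the Cd79a limit, 28 cells had exactly 5 UMIs, and 13 barcodes that otherwise passed had 4. The highest Col1a1 and Col2a1 values inside were 42.3 and 41.2 per 10000, and 0 of the 515 had a Siglech UMI.

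The nearest population was the 365 Cd79a cells that passed every other step but lay under the surrogate light chain limit, called the other Cd79a cells from here on. The pro-B and large pre-B cells were the deeper group, with a median of 10708 UMIs (2297 to 57522) and 3183 genes per cell, against 5602 UMIs and 2203 genes in the other Cd79a cells. Levels are given as CPM, the UMIs of a gene summed over a group of cells scaled to counts per 1000000 UMIs of that group, with exact Poisson 95% intervals where shown. A gene was counted as higher or lower when the log2 ratio of its CPM values, with 1 CPM added to each, was at least 1 in size. Only genes that reached 10 CPM in either group were tested. Of 8435 tested genes, 144 (1.71%) were higher and 683 (8.10%) lower in the pro-B and large pre-B cells than in the other Cd79a cells, with a median log2 ratio of -0.07. The counts were 328 higher and 565 lower by the mean over cells, 126 and 705 in cells with at least 5000 UMIs, and 298 and 594 when these were thinned to 5000. To compare how many cells had a UMI, each cell was thinned to 5000 UMIs, which kept 428 pro-B and large pre-B cells, 201 other Cd79a cells and 3017 of 3081 collagen-rich cells. The collagen-rich cells are chondrocytes and bone cells by their Col1a1 or Col2a1 and give the background share of genes they should lack.

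**Figure D1:**
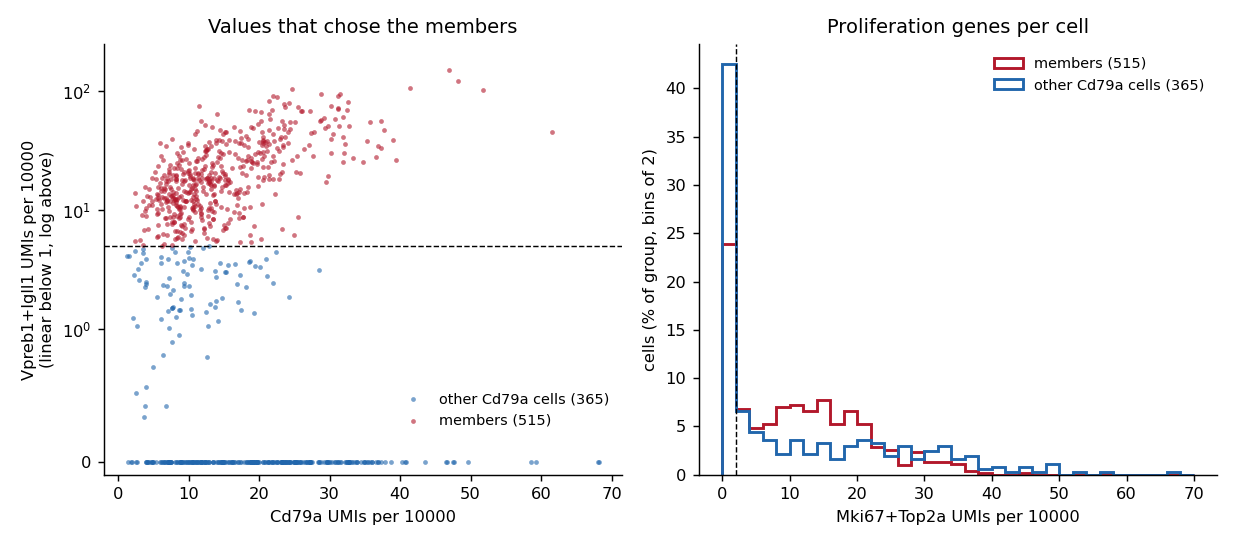
Left, each dot is 1 cell, with Cd79a on the x axis and Vpreb1 plus Igll1 on the y axis, both as UMIs per 10000 UMIs of the cell, and the dashed line at 5 per 10000 divides the 515 members from the 365 other Cd79a cells. Right, the percentage of each group's cells in bins of 2 per 10000 of Mki67 plus Top2a, where 76.1% of members and 57.5% of other Cd79a cells lie at or above the dashed line at 2.

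Surrogate light chain and pre-B receptor genes were abundant in these cells, 3 of the 7 by the rule itself. Per cell, Vpreb1 ran from 0 through a median of 10.6 to 98.3 per 10000, and Igll1 from 0 through 7.94 to 51.4. A Vpreb1 UMI was found in 511 of the 515 cells and an Igll1 UMI in 508, shares that the rule itself sets. Summed over cells, Vpreb1 stood at 1095 CPM and Igll1 at 779 CPM, against 57.7 and 60.9 CPM in the other Cd79a cells, a gap that the rule made. Vpreb2, which encodes a near copy of the Vpreb1 protein, was at 169 CPM (159 to 179) against 8.65 CPM (5.59 to 12.8). Of the 100-base stretches of its transcripts, 14.7% also occur in Vpreb1, and the part of such shared stretches in its count was not tested.

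Vpreb3, which assists assembly of the receptor chains inside the cell, was at 1483 CPM (1454 to 1512) against 1114 CPM (1076 to 1153), a log2 ratio under the limit of 1. All 515 cells had at least 1 Vpreb3 UMI, with a median of 16.4 per 10000. Cd79b, the signalling partner of Cd79a, was at 889 CPM against 1270 CPM. The heavy chain constant gene Ighm was at 1896 CPM (1864 to 1930) against 2910 CPM (2848 to 2973) in the other Cd79a cells, and it too was found in all 515 cells, from 1.10 through 20.5 to 87.1 per 10000. An Ighm transcript does not by itself say that a productive heavy chain was made, because the constant gene is also transcribed before the joints are complete. Of the 4 genes of the list that the rule did not use, 1 (Vpreb2, which shares stretches with Vpreb1) was higher and 0 were lower.

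The label was checked against genes that the rule did not use. Ebf1 was found in 513 of 515 cells, and Pax5, which holds cells in the B lineage, in 421. At equal depth Pax5 was found in 60.0% of the cells against 1.09% of collagen-rich cells. Dntt, a gene of the pro-B stage, was found in 200 of 515 cells, and Mki67 and Top2a, genes of dividing cells, reached 2 per 10000 in 392. Igkc, the kappa light chain gene, more typical of later stages, was found in 153 cells. An Igkc UMI does not by itself say that kappa segments were joined. The label thus covers cells with and without Dntt UMIs, cells high and low in Mki67 and Top2a, and a minority with kappa transcripts. Of the 365 other Cd79a cells, Ebf1 was found in 360, Pax5 in 243, Dntt in 7 and Igkc in 334. In cells with at least 5000 UMIs, 87.1% of the pro-B and large pre-B and 84.1% of the other Cd79a cells reached the Mki67 and Top2a limit. Ebf1, Pax5, Mki67 and Top2a therefore describe B lineage and division, and do not set the label apart from the other Cd79a cells.

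**Figure D2:**
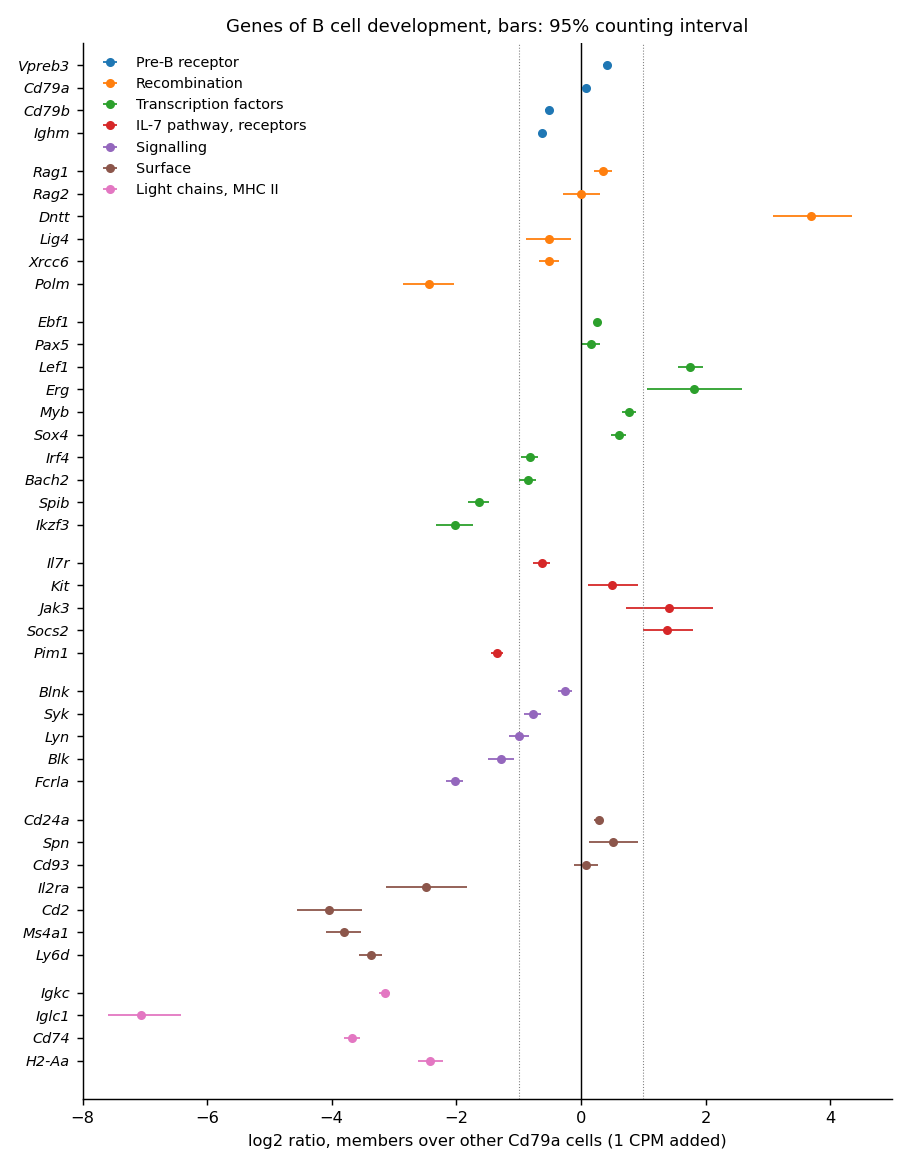
Log2 ratio of CPM (x axis, 1 CPM added) of the 515 pro-B and large pre-B cells over the 365 other Cd79a cells for genes of B cell development, coloured by role, with bars for the 95% counting interval and dotted lines at -1 and 1. Dntt, Lef1, Erg, Jak3 and Socs2 lie beyond 1, and of the genes plotted Iglc1, Cd2, Ms4a1, Cd74, Ly6d and Igkc lie furthest to the left.

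Among the recombination genes, 13 of 16 reached 10 CPM in either group, and 1 was higher (Dntt) and 1 lower (Polm) in the pro-B and large pre-B cells. Dntt (chr19:41029275-41059525, plus strand) was at 88.2 CPM (81.2 to 95.6) against 5.88 CPM (3.42 to 9.41), a log2 ratio of 3.70 (3.09 to 4.34). At equal depth 27.8% of the cells had a Dntt UMI, against 1.49% of the other Cd79a cells and 0.232% of collagen-rich cells. The cell with the most Dntt held 3.39% of its UMIs, so no single cell made the level. Polm, a polymerase that acts in joining light chain segments, was at 8.67 CPM against 51.5 CPM, a log2 ratio of -2.44 (-2.86 to -2.03).

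Rag1 (chr2:101638282-101649501, minus strand) was found in 347 of 515 cells, from 0 through a median of 2.10 to 27.9 per 10000. Its level was 241 CPM (230 to 253) against 189 CPM (174 to 206) in the other Cd79a cells, a log2 ratio of 0.35 (0.21 to 0.49). Rag2, its partner on the opposite strand of the same locus (chr2:101624718-101632529), was at 44.7 CPM (39.8 to 50.1) against 44.6 CPM (37.2 to 53.0). The ratio of Rag2 was 0.00 with an interval of -0.29 to 0.30, so a difference beyond that range was not seen. In the 73 cells with at least 5 Siglech UMIs, another lymphoid-like population of the marrow, Rag1 was at 10.7 CPM and Dntt at 9.39 CPM. Of the end-joining genes, Xrcc6, which encodes the Ku70 protein that holds broken ends, was at 118 CPM against 168 CPM, and the ligase gene Lig4 was at 22.9 CPM against 33.2 CPM, both short of the limit. Xrcc4, Nhej1 and Poll were under 10 CPM in both groups.

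Of 26 transcription factor genes, 25 reached 10 CPM, and 2 were higher and 5 lower. Lef1, which is active in early B progenitors, was at 252 CPM (240 to 265) against 74.0 CPM (64.4 to 84.6), a log2 ratio of 1.76 (1.55 to 1.96), and was found in 451 of 515 cells. Erg, a factor of progenitor cells, was at 15.8 CPM against 3.80 CPM, a ratio of 1.81 (1.06 to 2.58) that rests on 106 UMIs in the pro-B and large pre-B cells. The factors that specify and maintain the lineage were close in both groups, with Ebf1 at 1566 against 1312 CPM, Pax5 at 196 against 175 CPM and Tcf3 at 391 against 406 CPM. Myb, a factor of dividing progenitors, was at 497 CPM against 291 CPM, and Sox4, which supports survival of pro-B cells, was at 361 CPM against 238 CPM, both under the limit.

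The lower factors were Ikzf3, Spib, Myc, Id2 and Klf2. Ikzf3 (Aiolos), which rises when the pre-B receptor has signalled, was at 20.8 CPM (17.5 to 24.5) against 87.5 CPM (77.0 to 99.0). Spib, an Ets factor of later B cells, was at 71.9 CPM against 226 CPM. Klf2, a factor of resting lymphocytes, was at 33.3 CPM against 126 CPM, although 48.1% of collagen-rich cells had a Klf2 UMI at equal depth against 10.0% of the pro-B and large pre-B cells. Irf4, which acts in light chain recombination, was at 149 CPM against 265 CPM, and Bach2, a checkpoint factor of pre-B cells, at 152 CPM against 275 CPM, both short of the limit.

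The interleukin 7 pathway and growth factor receptors gave 2 higher and 2 lower genes of 12 tested. Il7r, the receptor itself, was found in 346 of 515 cells and stood at 157 CPM (148 to 167) against 244 CPM (227 to 263). Jak3, the kinase bound to the common gamma chain, was higher at 15.4 CPM against 5.19 CPM, with 1.41 (0.72 to 2.12) as its log2 ratio. Socs2, a feedback inhibitor of cytokine signalling, was higher at 52.3 CPM against 19.4 CPM. Pim1, a survival kinase induced by such signals, was lower at 241 CPM against 617 CPM, and Socs3 at 12.9 CPM against 28.7 CPM. Kit, the stem cell factor receptor of pro-B cells, was at 31.2 CPM (27.2 to 35.8) against 21.8 CPM (16.7 to 27.9), with 14.5% of thinned cells against 2.49%. A single other Cd79a cell held 15.9% of that group's Kit UMIs.

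In receptor signalling, 0 of 14 genes were higher and 3 were lower, namely Blk, Cd72 and Fcrla. Fcrla, an intracellular Fc receptor-like protein of B cells, was at 97.3 CPM against 399 CPM, and Blk, a Src family kinase of B cells, at 53.8 CPM against 133 CPM. Blnk, the adaptor that couples the receptor to its downstream enzymes, was at 295 CPM against 352 CPM. The kinases Syk and Lyn, which start the signal, were at 162 against 278 CPM and 107 against 215 CPM, log2 ratios of -0.78 and -0.997, so that Lyn lay just short of the limit. Without cells rich in neutrophil, monocyte and macrophage or erythroid markers 5 of the 14 genes were lower, Lyn among them at -1.22.

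Of 17 surface genes used for staging B cells, 12 reached 10 CPM, and 6 were lower and 0 higher. Cd2, which appears on pre-B cells, was at 3.29 CPM (2.06 to 4.98) against 69.5 CPM (60.2 to 79.8). Ms4a1 (CD20) was at 15.7 CPM against 232 CPM, Ly6d at 41.9 CPM against 444 CPM and Il2ra (CD25), a marker of small pre-B cells, at 2.39 CPM against 18.0 CPM. Il2ra was found in 1.94% of the cells. Genes shared by early stages differed less, with Cd93 at 116 CPM against 110 CPM, Cd24a at 1016 CPM against 834 CPM and Spn (CD43) at 33.6 CPM against 23.2 CPM. Cd34 was also among the lower genes, and 1 cell held 35.8% of its UMIs in the other Cd79a cells.

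Light chain genes set the pro-B and large pre-B cells furthest apart among the constant region genes, of which 4 of 7 tested were lower and 1 higher. Igkc (chr6:70726435-70726966, plus strand) was at 202 CPM (191 to 213) against 1799 CPM (1750 to 1848), a log2 ratio of -3.15 (-3.24 to -3.06). At equal depth 23.1% of the cells had an Igkc UMI, against 88.6% of the other Cd79a cells and 1.82% of collagen-rich cells, so the share in the pro-B and large pre-B cells lay above that background. Iglc1, a lambda light chain gene, was at 0.897 CPM (6 UMIs) against 253 CPM, and Iglc2 and Iglc3 were at 0.149 and 2.09 CPM against 82.3 and 86.5 CPM. The higher gene was Ighg2b, at 26.0 CPM (22.3 to 30.2) against 6.57 CPM (3.96 to 10.3). Its 174 UMIs came from 71 cells, and 10 of them held 47.7%. With a surrogate light chain limit of 20 per 10000 the log2 ratio of Ighg2b turned from 1.83 to -0.55. Ighg1, Ighg2c, Ighg3 and Ighe had 0 UMIs in both groups.

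Few variable gene transcripts were captured. Of 185 Ighv genes, 23 had a UMI, with 30 UMIs in 29 of the 515 cells (5.63%, exact binomial interval 3.80 to 7.99%), against 16 UMIs in 14 of the other Cd79a cells. Family 1 took 16 of the 30 UMIs and family 14 took 7. Igkv genes gave 37 UMIs in 33 cells, of which Igkv1-35 took 15 and Igkv19-93 took 10, and the same genes led in the other Cd79a cells with 17 and 12 of 54 UMIs and in the collagen-rich cells with 8 and 6 of 16 UMIs. The Iglv genes gave 0 UMIs in the 515 cells. With 3 counts taken as the most that a count of 0 allows, up to 0.583% of cells could hold a captured UMI, and this sets no limit on cells that transcribe the genes.

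Antigen presentation genes were low, with 9 of 12 lower and 0 higher, although the log2 ratios of H2-Eb1 and H2-DMb2, both among the 9, turned to 0.054 and 0.32 in cells with at most 5% mitochondrial UMIs. Cd74, the invariant chain of MHC class II, was found in 76 of 515 cells and stood at 82.4 CPM (75.6 to 89.5) against 1064 CPM (1027 to 1102). A single cell decided part of that level: it held 250 of the 551 Cd74 UMIs (45.4%) and 147 H2-Eb1 UMIs among its 12291 UMIs, with 6 Cd79a UMIs and no Siglech UMI. H2-Aa was at 39.5 CPM against 215 CPM, and Ciita, the transcriptional activator of these genes, at 3.44 CPM against 16.6 CPM. H2-Ab1 was at 95.2 CPM against 236 CPM, but 29.4% of collagen-rich cells also had an H2-Ab1 UMI at equal depth, against 36.2% of the pro-B and large pre-B cells.

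The cells were rich in transcripts of cell division. Mki67, a nuclear protein of cycling cells, and Top2a, the topoisomerase that untangles replicated DNA, together ran from 0 through a median of 10.8 to 57.7 per 10000. At or above 2 per 10000 lay 392 of 515 cells (76.1%, interval 72.2 to 79.7%), against 210 of 365 other Cd79a cells (57.5%, 52.3 to 62.7%), 30 of 73 Siglech cells and 15.5% of collagen-rich cells. Leaving out cells under 5000 UMIs removed 68 of the 123 cells below the limit but 19 of the 392 at or above it. Among the cells kept, the share was 87.1% (83.6 to 90.2%) in the pro-B and large pre-B cells and 84.1% (78.3 to 88.8%) in the other Cd79a cells before thinning, and 89.3% and 86.1% after it. The intervals of the groups overlapped in these deeper cells, unlike in all cells. Near the limit, 45 cells lay between 1 and 3 per 10000, and 101 cells had no UMI of either gene.

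As a sum over all cells, genes of S phase and of G2 and M phases did not separate the groups, with 0 of 24 and 0 of 24 past the limit. Pcna, the replication clamp, was at 393 CPM against 354 CPM, Tyms at 162 CPM against 107 CPM and Cdk1, the mitotic kinase, at 248 CPM against 234 CPM. Of the 392 cells at or above the limit, 201 had more UMIs of the S phase list than of the G2 and M list, and 191 did not. Among the 12 tested genes of G1 control, Cdk6 was higher at 198 CPM (187 to 209) against 80.9 CPM (70.9 to 92.0), and Rb1 and Btg1 were lower, the latter, an antiproliferative gene, at 397 CPM against 1129 CPM. Ccnd3, the D cyclin that pre-B cells depend on, was at 231 CPM against 142 CPM, and Ccnd2 at 62.9 CPM against 120 CPM.

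Genes linked to fetal and neonatal blood formation were looked up because the mouse was 6 days old. Lin28b, which marks fetal-type lymphopoiesis, had 21 UMIs in the 515 cells (3.14 CPM) and Lin28a 1 UMI, both too few for a comparison. Igf2bp3, a target of Lin28b, was found in 61.9% of the cells at 93.9 CPM (86.7 to 102) against 54.3 CPM (46.1 to 63.5). Arid3a was the lower 1 of the 5 tested genes, at 34.8 CPM against 76.1 CPM, and 0 were higher.

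Of 12 survival genes 5 were lower, and of 8 tested migration genes 2 were lower, with 0 higher in either list. Bcl2l1, which encodes Bcl-xL, was at 14.3 CPM against 42.9 CPM and the Bcl2a1 copies, whose reads cannot be well divided between them, were lower too, with Bcl2a1b at 14.2 CPM against 118 CPM, but Bcl2a1a turned to a log2 ratio of 0.99 with at most 5% mitochondrial UMIs. Mcl1, the other main survival gene of B progenitors, was at 224 CPM against 330 CPM. Cxcr4, the receptor that keeps B progenitors near Cxcl12-producing stroma, was found in 88.7% of the cells at 261 CPM against 390 CPM. Ccr7, the homing receptor of lymph nodes, was at 17.3 CPM against 102 CPM, and Cxcr5, the follicle homing receptor, at 3.29 CPM against 19.0 CPM.

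Outside these lists, the 10 genes with the largest ratios towards the pro-B and large pre-B cells, among those at 50 CPM or more, were Tbxa2r, Gfra2, Impdh1, Fam212a, Bfsp2, Crip1, Bcat1, Tbc1d10c, Rasgrp2 and Hhex. Tbxa2r, the thromboxane A2 receptor, was at 51.3 CPM (46.0 to 57.0) against 5.53 CPM (3.16 to 8.98). Crip1, a small LIM protein, was the most abundant of them at 1465 CPM against 447 CPM. Bfsp2, a gene best known from the lens, was at 302 CPM against 78.8 CPM, found in 66.8% of thinned cells against 0.895% of collagen-rich cells. Hhex, a homeobox factor needed for B progenitors, was at 173 CPM against 61.6 CPM, and Rasgrp2, an activator of the small GTPase Rap1, at 354 CPM against 126 CPM. In each of the 10, the leading cell held under 4% of the members' UMIs.

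The 10 largest in the opposite direction were Ctsg, Elane, Fcmr, Prtn3, Mpo, Col10a1, Ms4a3, Ctsk, Ctla2a and Mmp13. Fcmr, the IgM Fc receptor of maturing B cells, was at 0.598 CPM against 65.4 CPM. Most of the others are not B cell genes: Ctsg, Elane, Prtn3, Mpo and Ms4a3 belong to granulocyte precursors, Col10a1 and Mmp13 to hypertrophic cartilage and bone, and Ctsk to osteoclasts. In the other Cd79a cells 1 cell held 68.1% of the Col10a1 UMIs, 1 held 75.3% of the Ctsk UMIs and 1 held 39.5% of the Mmp13 UMIs, and 1 held 20.3% of the Elane UMIs. With a surrogate light chain limit of 2 per 10000, the ratios of Col10a1 and Ctsk turned towards the pro-B and large pre-B cells. Elane was at 2.84 CPM in the pro-B and large pre-B cells against 191 CPM, and Mpo at 11.2 CPM against 276 CPM.

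Within the pro-B and large pre-B cells, the 123 cells under 2 per 10000 of Mki67 plus Top2a (the Mki67/Top2a-low cells) differed in depth from the 392 at or above it (the Mki67/Top2a-high cells), with medians of 4527 and 12963.5 UMIs. Of 8417 genes tested, 945 (11.2%) were higher and 493 (5.86%) lower in the low cells, with a median log2 ratio of 0.19 over all genes. Each ratio below should be read against that median. By the rule and its correlates, 24 of 24 genes of G2 and M phases and 15 of 24 of S phase were lower in the low cells, Mki67 and Top2a being the genes that made the split. Outside the lists the lowest were Ncapg, Cdca5, Esco2, Hist1h1b, Hist1h2ap, Hist1h2ae, Incenp, Aspm, Spc25 and Kif4, all genes of replication, histone supply or mitosis, and Ncapg and Cdca5 had 0 UMIs in the low cells against 104 and 73.6 CPM in the high cells.

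Of 12 tested recombination genes, 2 were higher (Dntt, Xrcc6) and 2 lower (Hmgb1, Hmgb2) in the Mki67/Top2a-low cells. Rag1 was at 394 CPM (350 to 442) in the low and 222 CPM (210 to 234) in the high cells, a log2 ratio of 0.83 (0.64 to 1.01). That is under the limit of 1, but with the division at 1 per 10000 of Mki67 plus Top2a the ratio was 1.01 and passed it. Rag2 was at 47.1 CPM (32.8 to 65.5) and 44.4 CPM (39.2 to 50.1). Dntt was at 203 CPM (172 to 238) against 73.8 CPM (67.1 to 81.0), and Xrcc6 at 260 CPM against 99.9 CPM. Kit was level, at 32.3 against 31.1 CPM. Hmgb1 and Hmgb2, DNA-bending cofactors of the recombinase, were lower in the low cells, at 1630 against 3562 CPM and at 1205 against 3360 CPM. The split was made by genes of dividing cells, and its part in the Hmgb1 and Hmgb2 ratios was not tested. Of the factors, Lef1 (468 against 225 CPM), Erg (32.3 against 13.8 CPM) and Klf2 (64.6 against 29.4 CPM) were higher and 0 of 25 were lower. Vpreb1, which is part of the rule, was at 2268 against 948 CPM.

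Other genes of the low cells were the adaptors Blnk (541 against 264 CPM) and Pik3ap1 (18.8 against 7.06 CPM), which were the 2 of 14 signalling genes past the limit. No gene of the interleukin 7 list passed it, and Il7r was at 147 CPM in the low and 159 CPM in the high cells. Without cells rich in neutrophil, monocyte and macrophage or erythroid markers 2 of 11 tested genes of that list were higher, and without barcodes marked as doublets 1 of 12. Among genes outside the lists, Ltb, a cytokine of lymphoid tissue, was at 315 CPM (276 to 358) against 35.5 CPM (30.8 to 40.6). Pcp4l1 was at 166 CPM (138 to 198) against 25.6 CPM (21.7 to 30.0) and had only 0.692 CPM in the other Cd79a cells, and Speer2, a gene of a family of near copies whose reads may be shared between them, was at 90.2 against 6.39 CPM. The rest of the 10 were Ankrd33b, Mast4, Gsap and Gimap4, and Rgs5, Cxcl1 and Gng11, of which 1 cell each held 59.2%, 51.2% and 33.5% of the UMIs in the pro-B and large pre-B cells. The Gng11 ratio turned negative with at least 10 Cd79a UMIs, the division at 1 per 10000 or thinning to 5000 UMIs. The Cxcl1 ratio did so with at most 5% mitochondrial UMIs, and without cells rich in neutrophil, monocyte and macrophage or erythroid markers.

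By summed CPM, 9 of 10 tested antigen presentation genes were higher in the low cells, among them Cd74 (462 against 35.0 CPM) and the costimulatory genes Cd83 and Cd86. A Cd74 UMI was found in 9.76% of the low and 16.3% of the high cells, and after thinning to 5000 UMIs in 14.5% (6.50 to 26.7%) of 55 low and 9.38% (6.62 to 12.8%) of 373 high cells, with overlapping intervals. A single low cell held 72.9% of the low cells' Cd74 UMIs. Without that cell 5 of 10 were higher, and with at least 20 per 10000 of Vpreb1 plus Igll1 the log2 ratios of H2-Aa, H2-Ab1 and H2-Eb1 turned to -0.43, -0.80 and -1.59. The ratio of Cd83 turned to -0.27 with at least 10 Cd79a UMIs. Markers of other cell types also moved with the split: 3 of 8 neutrophil, 4 of 6 chondrocyte, 5 of 7 osteoblast and stroma and 2 of 4 endothelial markers tested were higher in the low cells, whereas 0 of 7 monocyte and macrophage and 0 of 7 erythroid markers were higher and 1 of each was lower (C1qa and Slc4a1). Col2a1, for example, was at 833 against 401 CPM and Col1a1 at 528 against 233 CPM. The part of free RNA and of depth in the ratios between low and high cells was not tested. The log2 ratio of Rag1 was 0.54 in the cells with at least 5000 UMIs and 0.56 when these were thinned to 5000.

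The 210 Mki67/Top2a-high and 155 low cells among the other Cd79a cells were measured the same way. Rag1 was at 122 CPM (108 to 138) in their high and 406 CPM (360 to 457) in their low cells, so Rag1 was lowest in the high cells among the other Cd79a cells and its intervals overlapped between both sets of low cells. Dntt rested on 14 UMIs in their high cells (6.33 CPM, 3.46 to 10.6) and 3 UMIs in their low cells (4.42 CPM, 0.911 to 12.9), too few to compare. Xrcc6 was at 142 CPM in their high and 253 CPM in their low cells. Igkc was nearly level between the low and high pro-B and large pre-B cells (207 and 201 CPM), whereas in the other Cd79a cells it was at 2722 CPM in the low and 1515 CPM in the high cells.

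**Figure D3:**
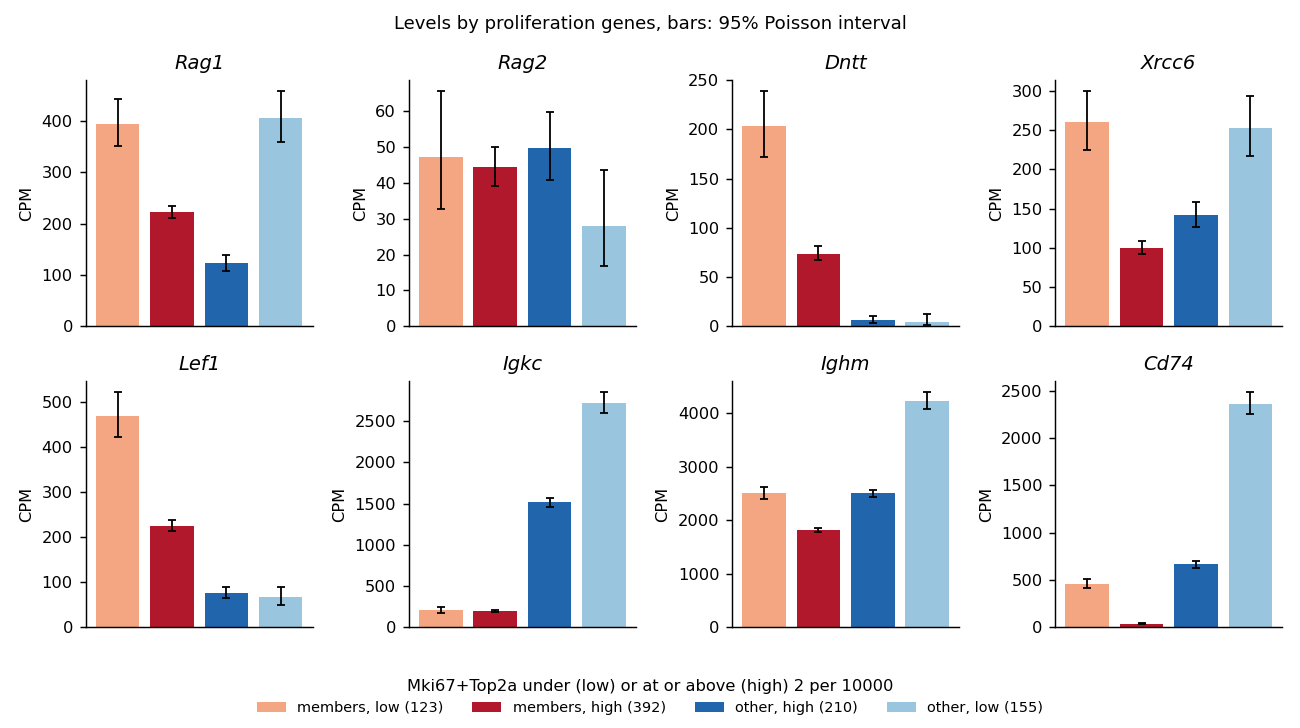
CPM (y axis, separate scale for each gene) of 8 genes in 4 groups of cells, members and other Cd79a cells with Mki67 plus Top2a under (low) or at or above (high) 2 per 10000, with bars for the exact Poisson 95% interval. Dntt and Lef1 are higher in both member groups than in both other groups, Igkc is higher in the other Cd79a cells, and Rag1 stands at 394 and 406 CPM in the low groups.

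The cells were next ranked by Vpreb1 plus Igll1, the value that chose them, and divided into the lowest 172, the middle 171 and the highest 172 cells, with medians of 9.71, 18.5 and 39.0 per 10000. Depth and Mki67 and Top2a moved along this ranking, and their part in what follows was not tested: the median depth was 15443.5, 12843 and 5836.5 UMIs and the share at or above the Mki67 and Top2a limit was 93.0, 85.4 and 50%. The ranking also holds the rule's own value, so the levels along it are a description. Rag1 stood at 182, 256 and 356 CPM, Dntt at 45.2, 72.2 and 229 CPM, and Lef1 at 153, 238 and 528 CPM. Blnk ran likewise from 223 through 270 to 524 CPM. Ebf1, Ighm and Pax5, genes of the B lineage at large, ran the same way, with Ebf1 at 1191, 1503 and 2630 CPM, Ighm at 1666, 1863 and 2539 CPM and Pax5 at 174, 193 and 259 CPM. Igkc ran the other way, at 271, 171 and 99.0 CPM, as did Ighg2b at 31.9, 25.5 and 12.7 CPM.

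Dntt and Igkc UMIs were seldom found in the same cell. Among the 392 Mki67/Top2a-high cells, 135 had a Dntt UMI and no Igkc UMI, 119 had Igkc and no Dntt, 133 had neither, and 5 had both. These groups were formed, and the genes compared in them chosen, after the values had been seen, and the median depth was 12032, 12614 and 15866 UMIs in the first 3. The Dntt and the Igkc cells were thus of like depth, but a cell without a UMI of a gene may still transcribe it. Whether kappa segments were joined in the Igkc cells cannot be told from an Igkc UMI.

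Rag1 was at 372 CPM (684 UMIs) in the Dntt cells, 245 CPM (554 UMIs) in the cells with neither and 34.9 CPM (63 UMIs) in the Igkc cells. Rag2 was at 56.5, 53.0 and 21.1 CPM. Kit stood at 46.2, 37.6 and 5.55 CPM and Erg had 46, 33 and 2 UMIs, the last being 1.11 CPM. Lef1 (295, 220 and 156 CPM), Myb (588, 519 and 343 CPM) and Crip1 (1856, 1498 and 1043 CPM) ran in the same order.

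Myl4, Nrgn, Ighm and Il7r were highest in the Igkc cells. Myl4, a myosin light chain, was at 52.2 CPM in the Dntt cells, 90.6 CPM in the cells with neither and 455 CPM in the Igkc cells, and Nrgn, a calmodulin-binding protein best known from neurons, at 3.81, 56.6 and 191 CPM. Ighm was at 1620, 1625 and 2266 CPM, so it was level in the first groups and higher in the Igkc cells. Il7r was at 149, 116 and 221 CPM, and Ccnd3 at 206, 253 and 263 CPM. Mki67 was close in all 3 groups, at 579, 574 and 601 CPM.

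Split by Igkc alone, the 268 Mki67/Top2a-high cells without an Igkc UMI had 302 CPM of Rag1 and the 124 with one had 45.0 CPM, a log2 ratio of 2.72 (2.41 to 3.05), or 2.94 in cells with at least 5000 UMIs and 1.98 when these were thinned to 5000. Split by Dntt alone, the log2 ratio of Rag1 in cells with over cells without a Dntt UMI was 1.30 (1.14 to 1.45), and 0.93 when thinned to 5000 UMIs, which is under the limit of 1. In the Mki67/Top2a-low cells the gap was smaller, with Rag1 at 425 CPM in 94 cells without and 292 CPM in 29 cells with an Igkc UMI. The difference between these gaps was not tested.

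**Figure D4:**
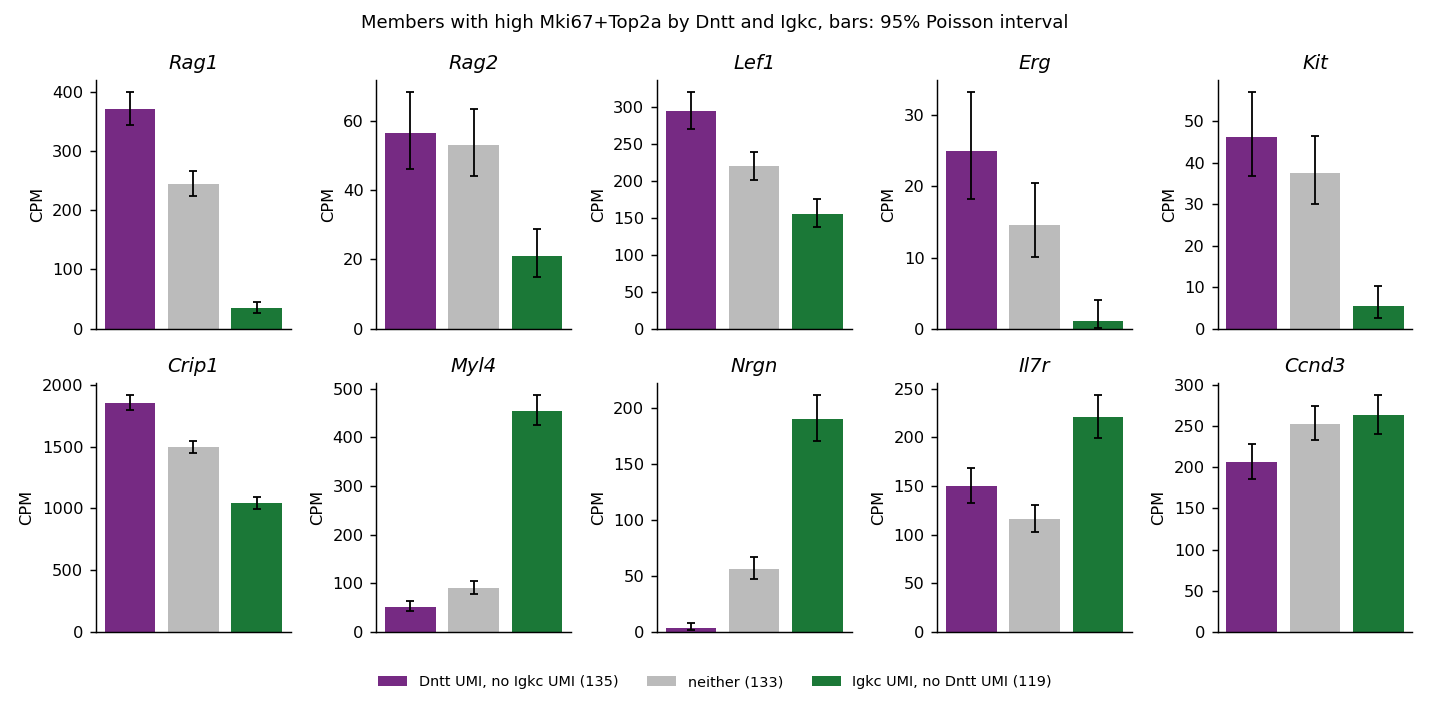
CPM (y axis, separate scale for each gene) of 10 genes in members at or above 2 per 10000 of Mki67 plus Top2a, divided by whether the cell had a Dntt or an Igkc UMI (135, 133 and 119 cells), with bars for the exact Poisson 95% interval. Rag1, Rag2, Lef1, Erg, Kit and Crip1 are lowest, and Myl4, Nrgn and Il7r highest, in the cells with Igkc.

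Markers of other cell types were measured in the same cells. All 9 neutrophil markers had UMIs, summing to 2934 CPM against 7111 CPM in the other Cd79a cells, led by S100a9 at 1148 CPM, and 10 cells held 92.9% of those UMIs. All 8 erythroid markers had UMIs and summed to 8346 CPM against 21844 CPM, led by Hbb-bs at 4678 CPM, with 83.6% in 10 cells. The 9 monocyte and macrophage markers summed to 494 CPM against 679 CPM, led by Lyz2, and the 5 endothelial markers to 110 CPM against 256 CPM, led by Pecam1. Leaving out the cells with 50 or more per 10000 of neutrophil, monocyte and macrophage or erythroid markers left 481 cells, with 170 genes higher and 850 lower than in the other Cd79a cells treated alike.

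Cartilage and bone markers were seen at a low level in most cells. The 6 chondrocyte markers summed to 713 CPM, with Col2a1 at 449 CPM, and the 7 osteoblast and stroma markers to 747 CPM, with Col1a1 at 265 CPM, against 1729 and 1357 CPM in the other Cd79a cells. The collagen limits of the rule cap these values. Of 11 T and NK markers 8 had UMIs, summing to 21.1 CPM against 42.5 CPM, with Trbc2 at 14.6 CPM and Cd3e, Cd8a and Ncr1 at 0. Of 6 plasmacytoid dendritic markers 4 had UMIs, summing to 503 CPM against 307 CPM in the other Cd79a cells, of which Tcf4, a factor that B cells also use, gave 466 CPM, and Siglech, which the rule limits, and Klk1 were at 0. Of 5 plasma cell markers 4 had UMIs, summing to 714 CPM against 460 CPM, of which Mzb1, a chaperone of immunoglobulin chains in several B cell stages, gave 668 CPM, and Jchain was at 0. The 6 stem and progenitor markers summed to 60.8 CPM against 79.5 CPM, led by Kit at 31.2 CPM. The part of these markers in the comparisons above was not tested.

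**Figure D5:**
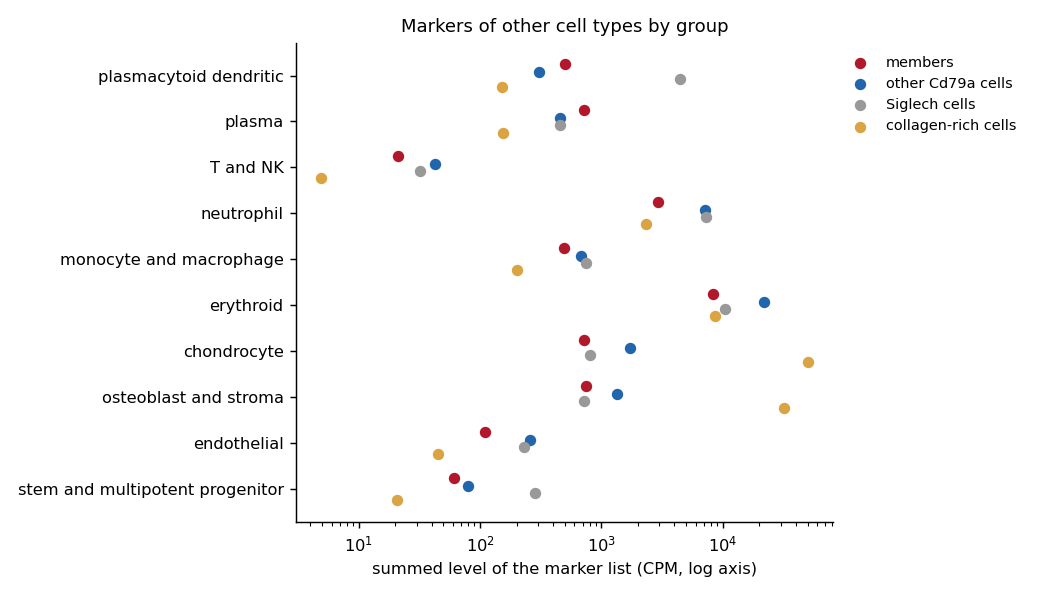
Summed CPM (x axis, log scale) of each marker list of another cell type in the 515 members, the 365 other Cd79a cells, the 73 Siglech cells and the 3081 collagen-rich cells, 1 dot per group. Members sit below the other Cd79a cells for neutrophil, erythroid, chondrocyte and osteoblast markers and far below the collagen-rich cells for chondrocyte markers.

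Scrublet, which marks barcodes that resemble simulated mixtures of cells, marked 35 of the 515 cells (6.80%), against 588 of all 14181 barcodes (4.15%) and 21 of the other Cd79a cells (5.75%). It marked 31 of the 392 Mki67/Top2a-high and 4 of the 123 low cells. Without marked barcodes 480 cells were left, with 157 genes higher and 809 lower than in the other Cd79a cells.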

How the data were processed

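Cells of both tibiae of 1 mouse were run as 1 droplet (10x Genomics 3′) library, and per the labels and file headers the authors aligned the reads to mm10 with Cell Ranger 3.1.0. The deposited values used here are UMI counts of 31053 genes in 14181 barcodes, 158281984 UMIs in all (500 to 85279 per barcode), and a second matrix with counts of 98 exogenous sequences, WPRE and tdTomato among them, in 6794880 barcodes that include all 14181. The sources used here do not give the annotation release. Seurat 3 is among the tools in the submitters' processing notes. The study's own filter asked for more genes per cell and set aside clusters with Ptprc, so its cells are not those described here.

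Barcodes were kept with 1000 genes and 10% mitochondrial UMIs as limits. Doublets were marked with Scrublet (scanpy 1.11.5) but kept. UMIs were summed per group. With 1 library there is no replicate and no p-value: Poisson and Clopper-Pearson 95% intervals cover counting error only. Log2 ratios add 1 CPM, tested genes have 10 CPM in either group, and the limit is 1. Genes outside the lists were named as the 10 largest ratios in each direction with 50 CPM in either group and 100 UMIs, without immunoglobulin segments and ribosomal, mitochondrial and unnamed genes. The scripts were tested on simulated counts. Of 31053 gene IDs, 30934 matched GENCODE M21 (GRCm38), which gave coordinates, and promoters are from RefSeq. The members, lists and marker genes were chosen with earlier results of these data known, and the division by Vpreb1 plus Igll1 and by Dntt and Igkc was chosen after their values were seen, as was the alternative of cells with at least 5000 UMIs without thinning. Alternatives covered the filters, each limit of the rule, depth, the doublet calls, cells with other markers, the CPM minimum and the mean over cells. Only some genes of each list are given with values, and 1 gene of the signalling list was left out of the text.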

Additional observations from a re-analysis of the deposited data

Results flagged for a closer look

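The report's comparisons do not use WPRE, the viral element that tags the tdTomato reporter transcript, which was counted in a separate deposited matrix holding all 14181 barcodes. At least 1 WPRE UMI was seen in 89 of the 515 pro-B and large pre-B cells (17.3%, exact binomial interval 14.1 to 20.8%), and it is given here because it is a signal in data outside the main measurement. The most in any of these cells was 10 UMIs, and 0 of 515 passed 14 UMIs, the limit the study used for reporter-positive cells. The share was 16.2% (12.5 to 20.3%) in the other Cd79a cells, of which 3 passed 14 UMIs, 30.1% (19.9 to 42.0%) in the 73 Siglech cells, of which 0 did, and 31.1% in the collagen-rich cells, of which 234 (7.59%) did. The intervals of the pro-B and large pre-B cells and of the other Cd79a cells overlapped. Median depths were 10708, 5602, 8554 and 19915 UMIs in this order. tdTomato itself had 0 UMIs in the pro-B and large pre-B cells. The source of these WPRE UMIs was not tested.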

How the results depend on the processing

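The number of pro-B and large pre-B cells fell to 219 with at most 5% mitochondrial UMIs and to 230 with at least 20 per 10000 of Vpreb1 plus Igll1. The share at or above the Mki67 and Top2a limit was 82.6% with at most 5% mitochondrial UMIs, 83.9% with at least 10 Cd79a UMIs, 59.1% with 20 per 10000 of Vpreb1 plus Igll1, 80% with the limit at 1 per 10000, 66.6% with it at 5, 87.1% in cells with at least 5000 UMIs and 89.3% when these were thinned to 5000. Genes higher than in the other Cd79a cells numbered 252 with 20 per 10000 of Vpreb1 plus Igll1, 328 by the mean over cells, 54 with 10 CPM added in place of 1, 358 with no minimum CPM and 298 at 5000 UMIs, and genes lower 343 with 20 per 10000, 273 with 10 CPM added and 1460 with no minimum. The log2 ratio of Rag1 in Mki67/Top2a-low over high cells was 0.58 with at most 5% mitochondrial UMIs, 0.58 with 20 per 10000, 0.64 with the limit at 5, 1.01 with it at 1, which passes the limit of a log2 ratio of 1, 0.54 in cells with at least 5000 UMIs and 0.56 when thinned to 5000, where the ratio by Igkc was 1.98 and that by Dntt 0.93.

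Of 10120 values of single genes under an alternative, 7965 stayed within the counting interval, 2129 moved beyond it and 26 changed sign. In low over high cells these were Cd34 (-0.77 with 10 Cd79a UMIs, -1.38 with the limit at 1, -0.24 at 5000 UMIs), Gng11 (-1.09, -0.94 and -0.75 in the same order), Cd83 (-0.27 with 10 Cd79a UMIs), Plag1 and Cxcl1 (-2.24 and -0.83 with at most 5% mitochondrial UMIs), Cxcl1 without cells rich in other markers (-0.32), Fam212a (-0.33 at 5000 UMIs), and with 20 per 10000 H2-Aa (-0.43), H2-Ab1 (-0.80), H2-Eb1 (-1.59), Bcl2a1d (-0.64) and Ccr7 (0.57). In pro-B and large pre-B over other Cd79a cells they were H2-Eb1 (0.054), H2-DMb2 (0.32) and Bcl2a1a (0.99) with at most 5% mitochondrial UMIs, Ighg2b (-0.55) and Mast4 (0.12) with 20 per 10000, Col10a1 (2.17), Ctsk (1.20) and Cxcl1 (0.43) with 2 per 10000, Cxcl1 by the mean over cells (0.017) and Rgs5 with 3 Cd79a UMIs (-1.29). The cause was not tested. No paired analysis was possible because all entries are 1 library whose barcodes name no entry, and for the same reason no replicate could be left out. Depth limits genes under 10 CPM, such as Lin28b, and cells under 5000 UMIs.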
